A study of Mus musculus with 2112 samples.

Results

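Multipotent progenitors (MPP) are bone marrow cells downstream of the haematopoietic stem cell that still give rise to several blood lineages. Here MPP stimulated with bacterial ligands were divided by a quality label that the submitters gave each well: cells whose label contains the word cycling, and cells without it. Of 2112 wells in the series, 2046 held a single cell. Of the stimulated MPP wells, 128 labelled fewGenes, pctTrans or plasma were left out and 244 remained, 105 cycling and 139 non-cycling, from 9 mice. The unstimulated MPP used for comparison were 222 cells, 174 cycling and 48 non-cycling, from 7 of the same mice.

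The mice were old (4 animals) or young (5 animals). Their strain, sex and age in months were not given in the sources used here, nor was any genetic change. Sorted cells of every group were kept in HSPC medium. Stimulated cells received 100 ng/ml LPS and 1 µg/ml Pam3CSK4 together for 2 h, and unstimulated cells received neither. How long unstimulated cells were kept in medium was not given in the sources used here. Unstimulated MPP came from all 4 old mice and 3 of the young ones. RNA was measured by SMART-seq2, which copies whole polyadenylated transcripts and carries no molecular identifiers. Plates 1 and 2 are called plate set A here and plate 4 plate set B.

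LPS is sensed by Toll-like receptor 4 and Pam3CSK4 by Toll-like receptor 2 with its partners. Both receptors signal through MyD88 to NF-κB, which switches on cytokine genes and its own inhibitors, and Toll-like receptor 4 also signals through TRIF to IRF3 and type I interferon, which acts on genes that carry interferon-stimulated response elements. A dividing progenitor meanwhile runs E2F-driven genes for DNA replication in S phase and a later set for mitosis in G2 and M phase. The comparison addresses whether MPP in cycle switch on inflammatory genes differently from MPP that are not.

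Counts per cell were alike in the classes, with a median of 409502 in cycling cells (7392 to 820654) and 416261 in non-cycling cells (7706 to 841826). Counts were summed per mouse and class, giving 18 sums of 6 to 26 cells, and levels are CPM, in which each sum's counts are brought to the same total with TMM factors between libraries. A difference in a sum cannot tell fewer expressing cells from less RNA per cell. Differences are log2 fold changes with standard errors from edgeR's quasi-likelihood test with the mouse as a block, called at a Benjamini-Hochberg adjusted p under 0.05 over all genes tested. The cells were thus chosen by a label that the submitters may have set on the RNA values themselves. How they set it was not given in the sources used here, so any gene of these wells could have entered it. Every test between the classes assumes that the gene tested did not. Values of cell cycle genes describe the label and carry no test. The p-values of the class comparison measure how far the class difference varied between mice. Fits of the stimulation response take out each mouse's level only and treat its sums as separate. Their p-values do not measure how the response varied between mice.

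The label matched its markers. Mki67, which coats mitotic chromosomes, was at 70.5 to 338 CPM over the 9 mice in cycling cells (median 233) and at 0 to 23.3 CPM in non-cycling cells (median 5.63). Top2a, which untangles DNA before cell division, was at 145 to 649 CPM (median 381) against 0 to 44.0 CPM (median 12.4). Mcm5, a subunit of the replicative helicase, was at 319 to 639 CPM (median 516.4) against 0.137 to 129.1 CPM (median 52.4). The ranges of these 3 genes did not overlap. By a looser mark, 278 of 9276 genes (3%) were higher in cycling cells of 9 of 9 mice. Tcf19 and Neil3, genes outside the fixed cycle lists, had no count in any non-cycling sum. Relative to a floor set at 3 counts for the whole group, they were at least 1262-fold and 878-fold higher in cycling cells. Such floors cover counting error only.

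The step from 1 class to the other was not sharp in every cell. With each cell thinned to 100000 counts, 100 cycling and 136 non-cycling cells were left. A cycling cell detected a median of 104 of 176 S phase and G2/M genes and a non-cycling cell 27. The lowest cycling cell detected 35 and the highest non-cycling cell 54. At or below 54 lay 13 of 100 cycling cells, and at or above 35 lay 21 of 136 non-cycling cells. Of the cycling cells, 72 of 100 detected a larger share of the S phase list than of the G2/M list.

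Both classes carried MPP genes. Kit, the stem cell factor receptor, was at 93.9 to 594 CPM in cycling cells (median 266) and 150.1 to 639.9 CPM in non-cycling cells (median 475). Flt3, the receptor that marks lymphoid-primed progenitors, had medians of 211 and 245 CPM, and Cd34 had medians of 644 and 769 CPM. Cd48 was low and went the other way, with medians of 22.7 CPM in cycling and 3.62 CPM in non-cycling cells. It was at 0 in 1 and 2 mice. Markers of other cells were low or shared. Of 13 plasma and B cell genes, 9 had counts in cycling and 8 in non-cycling sums, with Ms4a1 at 0 in both, and their summed level without TMM scaling was 165.5 to 425.7 CPM against 217 to 572.9 CPM. Of 16 megakaryocyte genes, 12 had counts in each class, with Gp5, Gp6 and Ppbp at 0 in both, summing to 467.8 to 1060.0 CPM against 768 to 1249 CPM. Of 18 macrophage and neutrophil genes, 8 and 9 had counts, with C1qa, C1qb and C1qc at 0 in both, summing to 7.41 to 317 CPM against 25.6 to 110.1 CPM. Of 16 T and NK cell genes, 12 had counts in each class, with Cd3e at 0 in both, summing to 54.8 to 307 CPM against 45.3 to 174 CPM. The part of these markers in the results below was not tested.

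A set of 12 interferon response genes was lower in cycling than in non-cycling stimulated MPP, and no member of the list was called higher. All 41 tested of the 44 listed genes had a log2 fold change below 0, with a median of -1.23 against -0.01 over all 9276 genes tested. Of the 41, 12 passed the test as lower and 0 as higher, beside 1.18% of all genes called lower and 1.96% called higher. The 1.96% includes cell cycle genes, which describe the label. The 12 were the antiviral proteins Ifit1, Ifit2, Ifit3, Rsad2, Mx1 and Mx2, the 2′-5′ oligoadenylate synthetase-like genes Oasl1 and Oasl2, the ISG15 protease Usp18, the ADP-ribosyltransferase Parp14, the chaperone Rtp4, and Ifi44. Of these, Rsad2, Oasl1, Usp18 and Parp14 fall outside the rule for named genes and were picked after their values were seen.

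Sequence upstream of the start site is shown for Ifit1, Ifit3 and Rsad2, the called interferon genes whose window held a match to the element below, for Cxcl10, an interferon and NF-κB target that was not called, and for Top2a, a gene of the label. Each is the 250 bases before the RefSeq start (build GRCm38.p6), written 5′ to 3′ on the gene's strand. In the first 4, capitals mark the core of the interferon-stimulated response element, spelled GAAANNGAAA and searched on both strands. In Top2a, capitals mark the CHR element, TTTGAA, and the CCAAT box, CCAAT, of cell cycle promoters. No match overlapped another. The windows are chr19:34640639-34640888 (plus strand), chr19:34583279-34583528 (plus strand), chr12:26456453-26456702 (minus strand), chr5:92348890-92349139 (minus strand) and chr11:99024190-99024439 (minus strand).
Ifit1: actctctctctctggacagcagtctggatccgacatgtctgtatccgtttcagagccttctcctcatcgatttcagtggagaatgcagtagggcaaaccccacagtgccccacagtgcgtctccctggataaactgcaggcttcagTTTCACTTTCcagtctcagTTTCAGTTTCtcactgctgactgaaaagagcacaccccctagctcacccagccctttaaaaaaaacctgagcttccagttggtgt
Ifit3: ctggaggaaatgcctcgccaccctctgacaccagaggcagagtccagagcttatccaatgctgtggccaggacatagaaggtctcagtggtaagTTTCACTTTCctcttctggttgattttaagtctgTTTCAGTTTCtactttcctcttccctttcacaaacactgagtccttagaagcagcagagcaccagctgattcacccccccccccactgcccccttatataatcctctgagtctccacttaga
Rsad2: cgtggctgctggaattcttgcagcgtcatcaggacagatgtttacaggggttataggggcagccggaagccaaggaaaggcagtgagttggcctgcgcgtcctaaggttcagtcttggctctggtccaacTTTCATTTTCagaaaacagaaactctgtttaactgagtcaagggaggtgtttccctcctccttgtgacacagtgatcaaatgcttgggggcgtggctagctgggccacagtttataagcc
Cxcl10: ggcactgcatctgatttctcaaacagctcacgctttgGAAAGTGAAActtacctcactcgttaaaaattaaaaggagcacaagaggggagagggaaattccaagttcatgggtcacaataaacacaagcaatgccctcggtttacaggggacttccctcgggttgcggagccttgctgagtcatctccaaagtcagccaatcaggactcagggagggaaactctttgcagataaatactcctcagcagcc
Top2a: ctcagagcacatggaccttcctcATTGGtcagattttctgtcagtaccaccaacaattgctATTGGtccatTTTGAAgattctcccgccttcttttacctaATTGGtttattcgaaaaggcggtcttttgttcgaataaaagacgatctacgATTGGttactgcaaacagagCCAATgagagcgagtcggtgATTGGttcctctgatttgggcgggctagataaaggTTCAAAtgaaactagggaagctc

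Ifit1 and Ifit3 each held 2 matches to the core, the nearer one 85 and 122 bases before the start, and Rsad2 and Cxcl10 held 1 each. Top2a held 2 CHR elements, the nearer one 23 bases before its start, and 6 CCAAT boxes. The response element core was found in 828 of 27025 RefSeq windows (3.06%), in 16 of the 29 tested interferon genes with a window (55.2%) and in 0 of 31 NF-κB and Toll-like receptor genes. Within the interferon list, 3 of 7 called genes with a window held it (42.9%), and 13 of 22 that were not called (59.1%). The CHR element was in 29 of 78 G2/M genes (37.2%) and 3 of 34 S phase genes (8.82%), against 730 of 7027 tested genes with a window (10.4%). The CCAAT box was in 51 of 78 G2/M genes (65.4%) and 22 of 34 S phase genes (64.7%), against 2600 of 7027 (37.0%). A match is a run of letters and no evidence of binding.

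Ifit1, which binds foreign RNA caps, was at 19.1 to 577 CPM in cycling cells (median 282) and 513.1 to 1410.4 CPM in non-cycling cells (median 808). It was lower in cycling cells of all 9 mice, by 1.84 ± 0.41 on the log2 scale (adjusted p = 0.0261, edgeR quasi-likelihood test), although the ranges overlapped between mice. Mx1, a dynamin-like GTPase that blocks viruses, was at 0.273 to 42.2 CPM (median 9.32) against 17.6 to 296.8 CPM (median 59.02), a log2 fold change of -3.51 ± 0.69 (adjusted p = 0.0136, edgeR). Every mouse had less Mx1 in its cycling cells. Ifit3 had no count in the cycling cells of 2 mice and reached 36.5 CPM (median 0.810), against 0 to 338 CPM (median 140.7) in non-cycling cells, of which 1 mouse was at 0. Its log2 fold change was -5.38 ± 1.11 (adjusted p = 0.0210, edgeR, lower in 8 of 9 mice), and its reads can be shared with a near copy.

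Ifit2 was at 0 in the cycling cells of 3 mice and at most 60.7 CPM (median 9.86), against 38.5 to 326 CPM (median 84.9). Rsad2, the enzyme viperin, overlapped widely, at 86.4 to 1821 CPM (median 298) against 525.4 to 2228 CPM (median 974), with a log2 fold change of -1.53 ± 0.35 (adjusted p = 0.0292, edgeR, lower in 8 of 9 mice). Oasl2 showed a smaller but steadier difference, at 47.9 to 177 CPM (median 77.5) against 139.5 to 317 CPM (median 171), or -1.09 ± 0.17 (adjusted p = 0.0035, edgeR, 9 of 9 mice). Rtp4 was at 184 to 376 CPM (median 272) against 309.6 to 614 CPM (median 509), or -0.78 ± 0.14 (adjusted p = 0.00725, edgeR, 9 of 9 mice). Members thus differed widely in the size of the difference. Isg15, the ubiquitin-like modifier, had a log2 fold change of -0.71 (adjusted p = 0.395, edgeR) and the interferon regulator Irf7 one of -0.71 (0.368), neither past the threshold.

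The median of the interferon list lay below 0 in both plate sets, with fewer calls. It was -1.14 in plate set A (5 mice, 1 gene called) and -0.93 in plate set B (4 mice, 0 called). Ifit1 was at -1.24 in set A and -2.63 in set B, Mx1 at -2.55 and -4.83, and Oasl2 at -1.13 and -0.99. The count of 12 was 5 when young mouse 2-1 or 3 was left out and 7 when old mouse 2-2 was. It was 7 when the mouse block was replaced by plate set and age.

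**Figure D1:**
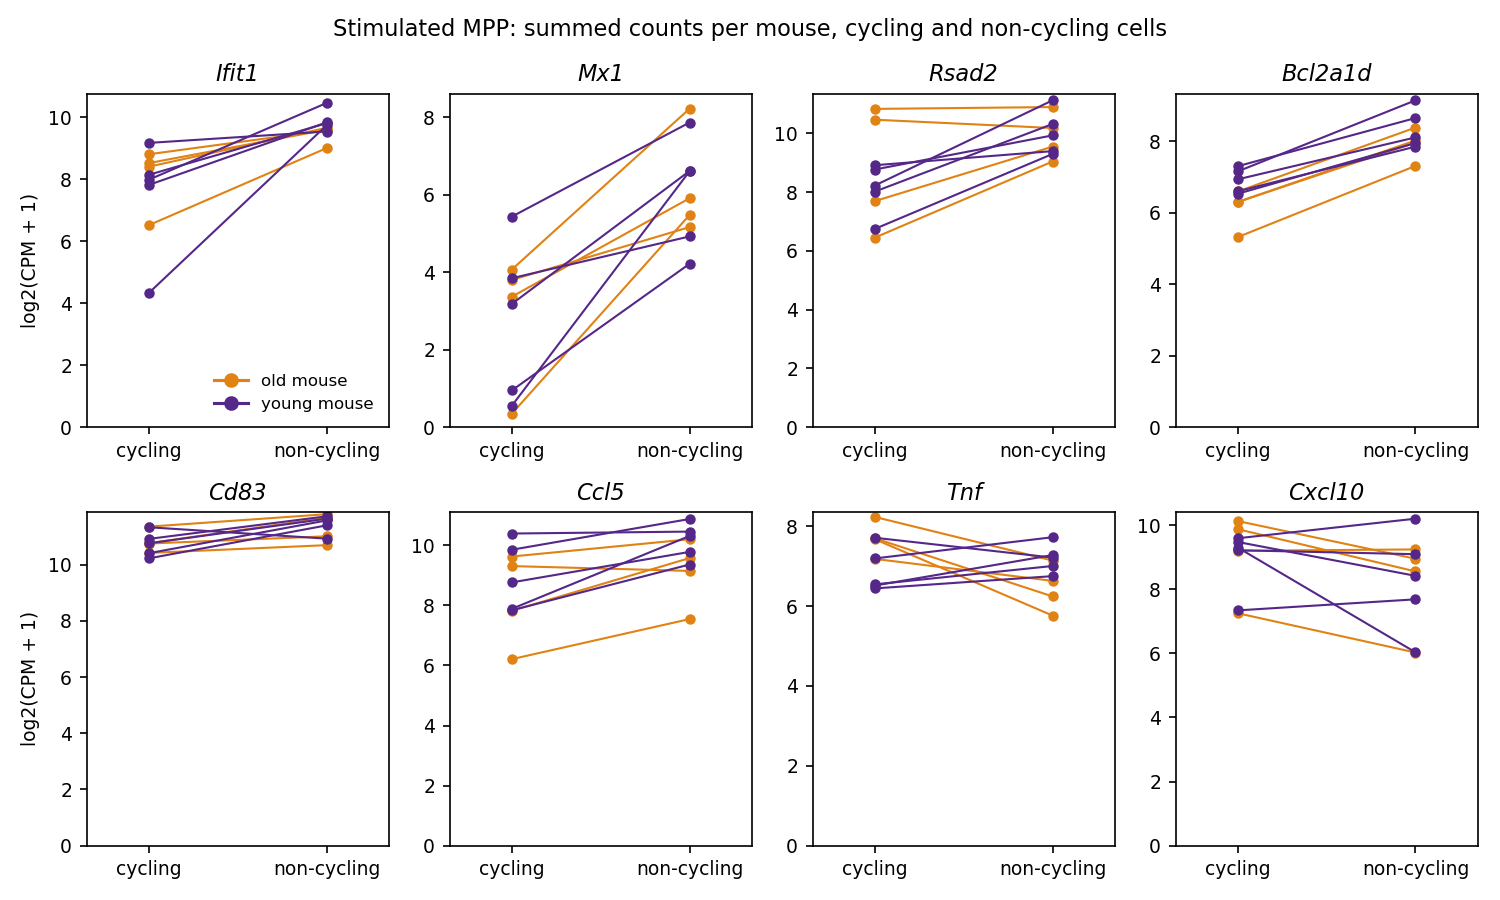
Level of 8 genes in cycling and non-cycling stimulated MPP of each mouse, as log2(CPM + 1) on the vertical axis, with a line joining both classes of 1 mouse (orange old, 4 mice; purple young, 5 mice). Ifit1, Mx1 and Bcl2a1d lie lower in cycling cells of all 9 mice, whereas Tnf was higher in the cycling cells of all 4 old mice and of 1 of 5 young mice.

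Genes of the NF-κB and Toll-like receptor response were divided. Over all 9276 genes tested, 1.18% were called lower and 1.96% higher, and 4674 had a log2 fold change below 0. Of the 43 tested genes of this list (45 listed), 8 were lower in cycling cells and 0 higher. Of the 43, 33 had a log2 fold change below 0, and the median was -0.36. The called genes included the survival genes Bcl2a1b and Bcl2a1d, the A20-binding inhibitor Tnip3, the endocytic gene Ehd1, the NF-κB subunit Nfkb1, the transglutaminase Tgm2, the adaptor Traf1 and the surface protein Cd83 (Tgm2 and Traf1 were named after their values were seen). Other targets had values near 0 and missed the threshold: Tnfaip3, the A20 enzyme that shuts the pathway off, at 0.14 (adjusted p = 0.918, edgeR), the adhesion molecule Icam1 at -0.20 (0.759), and the subunits Relb at -0.06 and Nfkb2 at 0.01.

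Bcl2a1d was at 38.9 to 157 CPM in cycling cells (median 95.7) and 158 to 565 CPM in non-cycling cells (median 259), and no cycling sum reached the lowest non-cycling one. Its log2 fold change was -1.60 ± 0.15 (adjusted p = 7.2e-05, edgeR). Only 5 genes of 9276 (0.0539%) were lower with no overlap, the others being Ehd1, the histone demethylase Kdm5b, Shisa5 and Ube2f. Bcl2a1b, a near copy whose reads the counting could split, was at 67.3 to 366 CPM (median 190.8) against 199 to 1495 CPM (median 587.1), or -1.64 ± 0.29 (adjusted p = 0.00773, edgeR, 9 of 9 mice), so that both copies had a difference of like size. Ehd1 was at 116 to 212 CPM (median 192) against 227.8 to 567 CPM (median 329.5), or -0.90 ± 0.17 (adjusted p = 0.0105, edgeR). Nfkb1 was at 140.97 to 308.9 CPM (median 241) against 247 to 578 CPM (median 389), or -0.85 ± 0.18 (adjusted p = 0.0175, edgeR, 8 of 9 mice). Cd83, a surface protein of activated antigen-presenting cells, was at 1199.7 to 2625 CPM (median 1740.3) against 1662 to 3570.1 CPM (median 3059.7), or -0.61 ± 0.15 (adjusted p = 0.0381, edgeR, 8 of 9 mice). Nfkbia, the inhibitor that NF-κB induces first, overlapped almost wholly, at 996 to 2083 CPM (median 1500.3) against 1093 to 2383 CPM (median 2106), or -0.36 ± 0.13 (adjusted p = 0.208, edgeR).

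Bcl2a1d stood at -1.61 in plate set A and -1.55 in plate set B, and Cd83 at -0.47 and -0.73. The list median was -0.15 in set A (1 called) and -0.54 in set B (0 called). The count of 8 became 5 when any of old mice 2 and 3 and young mice 2-3 and 3 was left out.

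Among cytokines and chemokines the chemokines Ccl5 and Ccl9 were lower in cycling cells, and Tnf was not. Of 21 tested genes (37 listed), 2 were called lower and 0 higher, 18 were below 0 and the median was -1.05. Over all genes 1.18% were called lower, and 4674 of 9276 lay below 0. Ccl5, which attracts T cells and monocytes, was at 73.1 to 1345 CPM in cycling cells (median 435) and 186 to 1881 CPM in non-cycling cells (median 879.6), or -1.06 ± 0.24 (adjusted p = 0.0261, edgeR, 8 of 9 mice). Ccl9 was at 40.7 to 722 CPM (median 106) against 207 to 635.3 CPM (median 439.7), or -1.53 ± 0.34 (adjusted p = 0.0279, edgeR, 8 of 9 mice). Both ranges overlapped, and the highest Ccl9 value of all was in a cycling sum. Leaving out 1 mouse left 0 or 1 of these 2 calls, and 1 passed without the mouse block. Ccl5 was at -0.74 in plate set A and -1.39 in plate set B, and Ccl9 at -2.15 and -0.67. With DESeq2 the list had 6 genes lower and 1 higher, the latter Cxcl10 (adjusted p = 0.0486).

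Tnf was at 85.9 to 299.4 CPM in cycling cells (median 145) and 53.2 to 210.2 CPM in non-cycling cells (median 127), with a log2 fold change of 0.38 ± 0.30 (adjusted p = 0.718, edgeR, higher in 5 and lower in 4 mice). The ranges overlapped over most of their length, and the value was 0.21 in plate set A and 0.66 in plate set B. Cxcl10 was at 151 to 1117 CPM (median 629) against 64.1 to 1176 CPM (median 375), or 0.76 ± 0.33 (adjusted p = 0.341, edgeR). These were 2 of only 3 listed genes above 0. Il1b was at 0 in the cycling cells of 4 mice and at most 66.3 CPM (median 4.36), against 17.8 to 461 CPM (median 51.8), or -4.03 ± 1.64 (adjusted p = 0.289, edgeR). Ccl3 was at 87.6 to 449 CPM (median 299.7) against 224 to 969.7 CPM (median 510.4), or -0.94 ± 0.31 (0.153), and Ccl4 had a log2 fold change of -0.34 (0.852). Neither Il1b nor these chemokines passed the threshold.

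The STAT3 and SOCS list had 3 of 18 tested genes lower in cycling cells, 0 higher, 17 below 0 and a median of -0.38. Over all genes 1.18% were called lower, and 4674 of 9276 lay below 0. Stat3, the transcription factor downstream of interleukin 6 family receptors, was at 291 to 559.5 CPM (median 395.8) against 492.8 to 935 CPM (median 597.4), or -0.64 ± 0.11 (adjusted p = 0.00599, edgeR, 9 of 9 mice). It stood at -0.60 in plate set A and -0.64 in plate set B. Socs5, a suppressor of cytokine signalling, differed by -1.34 ± 0.27 (adjusted p = 0.0146, edgeR) and the survival gene Bcl2l1 by -1.09 ± 0.24 (adjusted p = 0.0261, edgeR), each lower in 9 of 9 mice. Receptors and adaptors were not set apart: 0 of 23 Toll-like receptor pathway genes passed edgeR's test (2 at an unadjusted p under 0.05), with Tlr2 at 0.34 (adjusted p = 0.859, edgeR) and Myd88 at -0.43 (0.713). The 19 immediate early genes, among them Junb at 0.03, had a median of 0.00 and 0 calls (2 at an unadjusted p under 0.05). Neither direction was called among 19 HSC identity genes (median -0.38, 6 at an unadjusted p under 0.05).

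**Figure D2:**
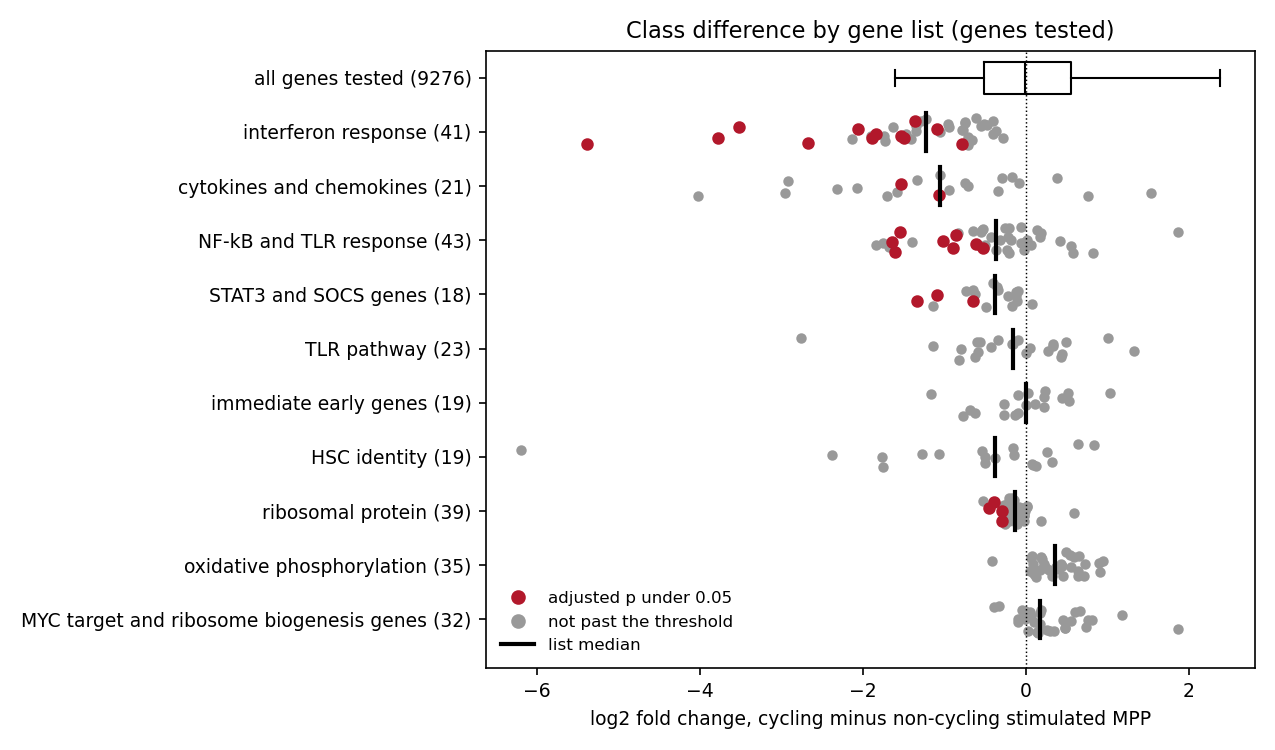
Log2 fold change (cycling minus non-cycling stimulated MPP) of each tested gene by list, with red points for an adjusted p under 0.05, black bars for list medians and a box for all 9276 genes whose whiskers span the 5th to 95th percentile. The interferon list lies wholly below 0 with a median of -1.23, while the immediate early and Toll-like receptor pathway lists centre near 0.

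Across all genes, 182 were higher and 109 lower in cycling cells. Of the 9107 genes outside the cell cycle lists 85 were higher, and the cyclin Ccnd2 was the 1 gene on those lists among the 109. The 182 thus include cell cycle genes, and the 85 include Tcf19 and Neil3, described with the label above. Neither count is free of the label. The largest lower genes by the rule were Ifit3, Ifit2, Il4i1, Mx1, Mx2, Lyst, Mgll and Kdm5b. Il4i1, a secreted amino acid oxidase, was at 0 to 34.4 CPM (median 9.53) against 33.8 to 224 CPM (median 152), or -3.72 ± 0.74 (adjusted p = 0.0138, edgeR). Kdm5b, which removes methyl groups from histone H3 lysine 4, was at 9.34 to 89.9 CPM (median 37.9) against 106 to 256 CPM (median 152.9), or -2.20 ± 0.32 (adjusted p = 0.00188, edgeR). The count of lower genes was 52 without the 3 mice with under 8 cycling cells (young mice 1, 2 and 2-3, a choice made after the data were seen), 57 and 68 when old mouse 2 or 3 was left out, and 65 and 55 for young mouse 2-1 or 3. Irf4, listed as a plasma cell gene, differed by -1.71 (adjusted p = 0.0198, edgeR), at 24.1 to 144 CPM against 72.6 to 292 CPM, and Cd9, listed with megakaryocytes, by -1.02 (adjusted p = 0.0316, edgeR).

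Growth genes were divided. Over all genes 1.96% were called higher and 1.18% lower, and 4602 of 9276 lay above 0. Of 26 nucleotide synthesis genes 8 were higher and 0 lower, all 26 were above 0 and the median was 1.34. Of the 8, 6 also stand on the cell cycle lists and describe the label (among them Rrm1, Rrm2 and Tyms). The others were the purine synthesis enzyme Paics and Impdh2 (named after its value was seen). Paics was at 417.98 to 802 CPM in cycling cells (median 534) against 225.8 to 489.8 CPM (median 332), or 0.89 ± 0.14 (9 of 9 mice). Impdh2 stood at 0.80. Both are growth genes that may have entered the label, so their values are a description. Other growth lists gave few calls. Of 35 oxidative phosphorylation genes 34 were above 0 (median 0.36), and 0 passed edgeR's test with 11 at an unadjusted p under 0.05. Of 32 MYC target and ribosome biogenesis genes 0 passed with 9 at that level (median 0.17). Of 39 ribosomal protein genes 35 were below 0 (median -0.14) and 4 were lower, namely Rps7 at -0.45, Rps9 at -0.39, Rplp0 at -0.30 and Rpl6 at -0.29. The chaperone Hsp90aa1 was higher by 0.59 (adjusted p = 0.0125, edgeR), the sole call among 19 heat shock genes.

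Detection was compared with every cell thinned to 100000 counts. A cycling cell detected 4305 ± 423 genes and a non-cycling cell 3232 ± 403 (mean ± SD of 9 mouse means), higher in 9 of 9 mice (exact two-sided sign-flip permutation test over mice, p = 0.0039, the smallest possible). In spite of that, a cycling cell detected fewer interferon list genes, 20.2 ± 3.81 against 22.9 ± 4.16, with 0 of 9 mice higher (exact permutation p = 0.0039, adjusted over 3 lists 0.0117). The difference was -2.80 genes in plate set A and -2.60 in plate set B. NF-κB and Toll-like receptor genes were detected at 26.5 ± 1.92 against 25.003 ± 2.55 a cell (adjusted exact permutation p = 0.223) and cytokines and chemokines at 7.97 ± 1.38 against 7.48 ± 0.862 (0.340).

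Detection of single genes, given without a test where the sums already chose them, set the classes apart for some genes only. Ifit1 was detected in 43.7% of cycling and 66.2% of non-cycling cells and Mx1 in 14.7% and 36.9%, lower in cycling cells of 9 of 9 mice for each. Nfkbia was detected in 99.1% and 99.4% of cells and Cd83 in 82.4% and 87.3%. For Cd83 the share of expressing cells was thus close while the summed level was lower. Tnf went the other way, in 63.7 ± 16.9% of cycling and 40.3 ± 10.4% of non-cycling cells, higher in 7 mice, lower in 1 and tied in the remaining one. Its exact permutation p was 0.0156, and 0.286 after adjustment over 20 cytokine genes, so the difference did not pass the correction. Over all cells that is 64 of 100 cycling and 53 of 136 non-cycling cells, and without stimulation 3 of 163 and 0 of 45. Il1b was detected in 5.48% and 14.3% of cells and Cxcl10 in 55.1% and 44.3%, each also at an adjusted exact permutation p of 0.286.

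**Figure D3:**
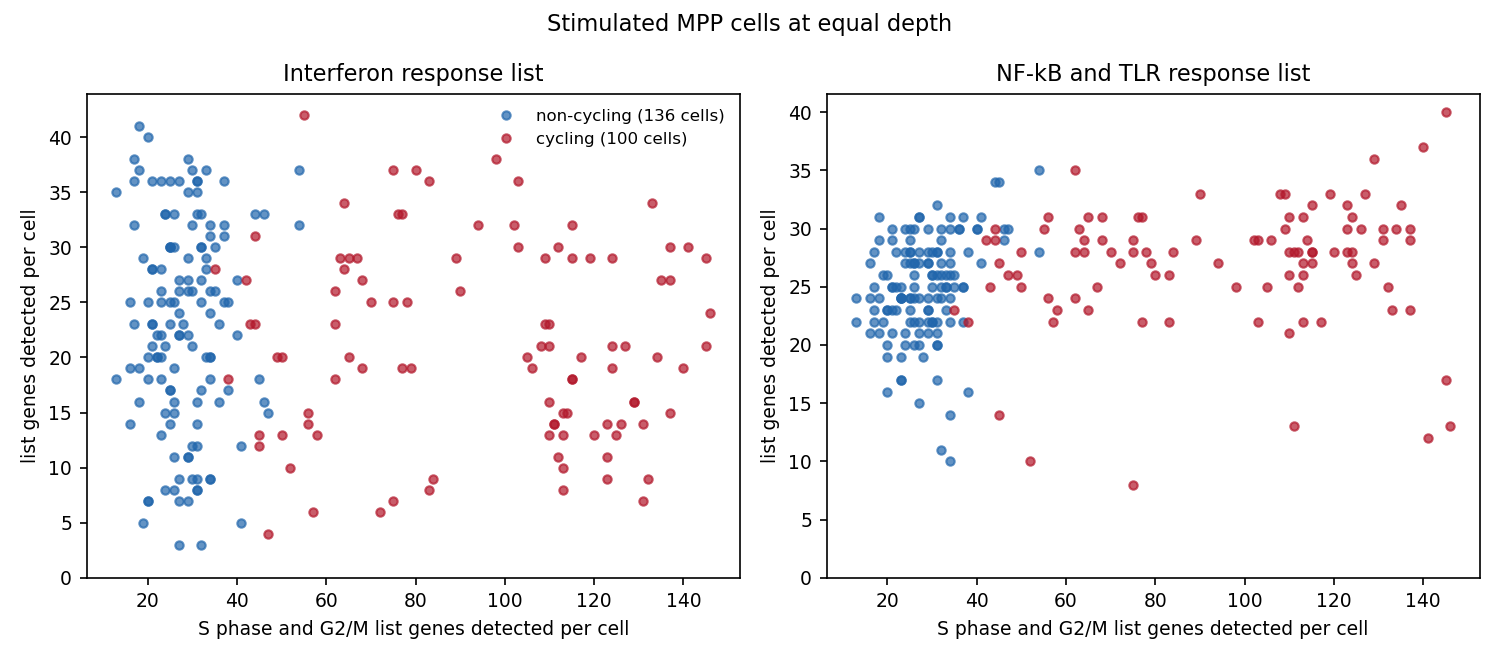
Genes of the interferon list (left) and of the NF-κB and Toll-like receptor list (right) detected per cell, on the vertical axis, against S phase and G2/M genes detected on the horizontal axis, with 1 point per stimulated MPP thinned to 100000 counts (red 100 cycling, blue 136 non-cycling). Cells of either class spread widely in interferon genes, and NF-κB list genes lie at similar heights in both classes.

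Within each class the shares of a cell's counts in interferon and in NF-κB genes were lower where the S phase share was higher. For interferon genes Spearman's rho was -0.393 over 100 cycling and -0.289 over 136 non-cycling cells, and for the G2/M share it was -0.357 and -0.213. For NF-κB and Toll-like receptor genes rho was -0.192 and -0.339 with the S phase share and -0.123 and -0.271 with the G2/M share. Both shares come from the same cell and total, and cells of a mouse are not independent, so these values are a description. The interferon and NF-κB shares had a rho of 0.321 and 0.179.

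Both classes switched on inflammatory genes. Stimulated sums were set against unstimulated sums of at least 5 cells, 29 sums in all. Unstimulated non-cycling sums came from 4 mice only (old mouse 2-2 and young mice 1, 2-1 and 2-3). In titles of some mice the same well position and plate number occur under both treatments, which places the treatments on separate plates. Plate and stimulation cannot be told apart there. In cycling cells 4.56% of 12094 genes rose and 2% (242 genes) fell, and in non-cycling cells 5.47% (662 genes) rose and 2.75% (332 genes) fell. The unequal number of mice and cells bears on these counts, and the responses share no sums. Of 43 NF-κB and Toll-like receptor genes 32 rose in cycling and 26 in non-cycling cells (median log2 3.92 and 3.75). Of 25 cytokines and chemokines 12 rose in each (5.02 and 5.64), and of 42 interferon genes 14 and 9 rose (1.32 and 1.41). None of these lists had a member that fell, and the medians over all genes were -0.25 and -0.00. Of 25 immediate early genes 10 rose in each class, and of 20 heat shock genes 12 and 8. With old mouse 2-2 left out, 1.27% of genes fell in cycling and 1.41% in non-cycling cells. In non-cycling cells 3.53% rose and 1.65% fell when young mouse 2-1 was left out, and 1.78% and 1.53% fell for young mice 1 and 2-3.

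Tnf was at 0 to 5.11 CPM in unstimulated cycling cells (median 0.065) and at 91.2 to 326 CPM after stimulation (median 155.3), a rise of 8.37 ± 0.93 on the log2 scale (adjusted p = 1.3e-06, edgeR). In non-cycling cells it went from 0 to 0.967 CPM (median 0) to 53.1 to 218 CPM (median 134), a rise of 8.81 ± 1.29 (adjusted p = 8.3e-05, edgeR). Stimulated and unstimulated ranges did not overlap in either class. Nfkbia rose by 4.72 ± 0.24 and 4.21 ± 0.31, from medians of 57.8 and 101 CPM to 1613 and 2200.4 CPM. Ifit1 rose by 5.07 ± 0.93 (adjusted p = 0.00083, edgeR) and 6.11 ± 1.32 (adjusted p = 0.0047, edgeR), from medians of 8.98 and 8.68 CPM to 305 and 825 CPM. Its unstimulated medians were thus close, but low, with Ifit1 detected in 13 of 163 cycling and 3 of 45 non-cycling unstimulated cells. The difference of its responses, given below, did not pass the threshold. Il1b and Cxcl2 had no count in unstimulated cells of either class, and relative to a floor of 3 counts for each group Il1b was at least 923-fold higher in cycling and 647.5-fold higher in non-cycling cells. Cxcl2 was at least 2178-fold and 273.1-fold higher. Stimulated cycling and non-cycling sums held 1317 and 7398 counts of Il1b, and 3108 and 3121 of Cxcl2. The same 3 counts stand against unequal unstimulated totals, so these folds cannot be compared between the classes.

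**Figure D4:**
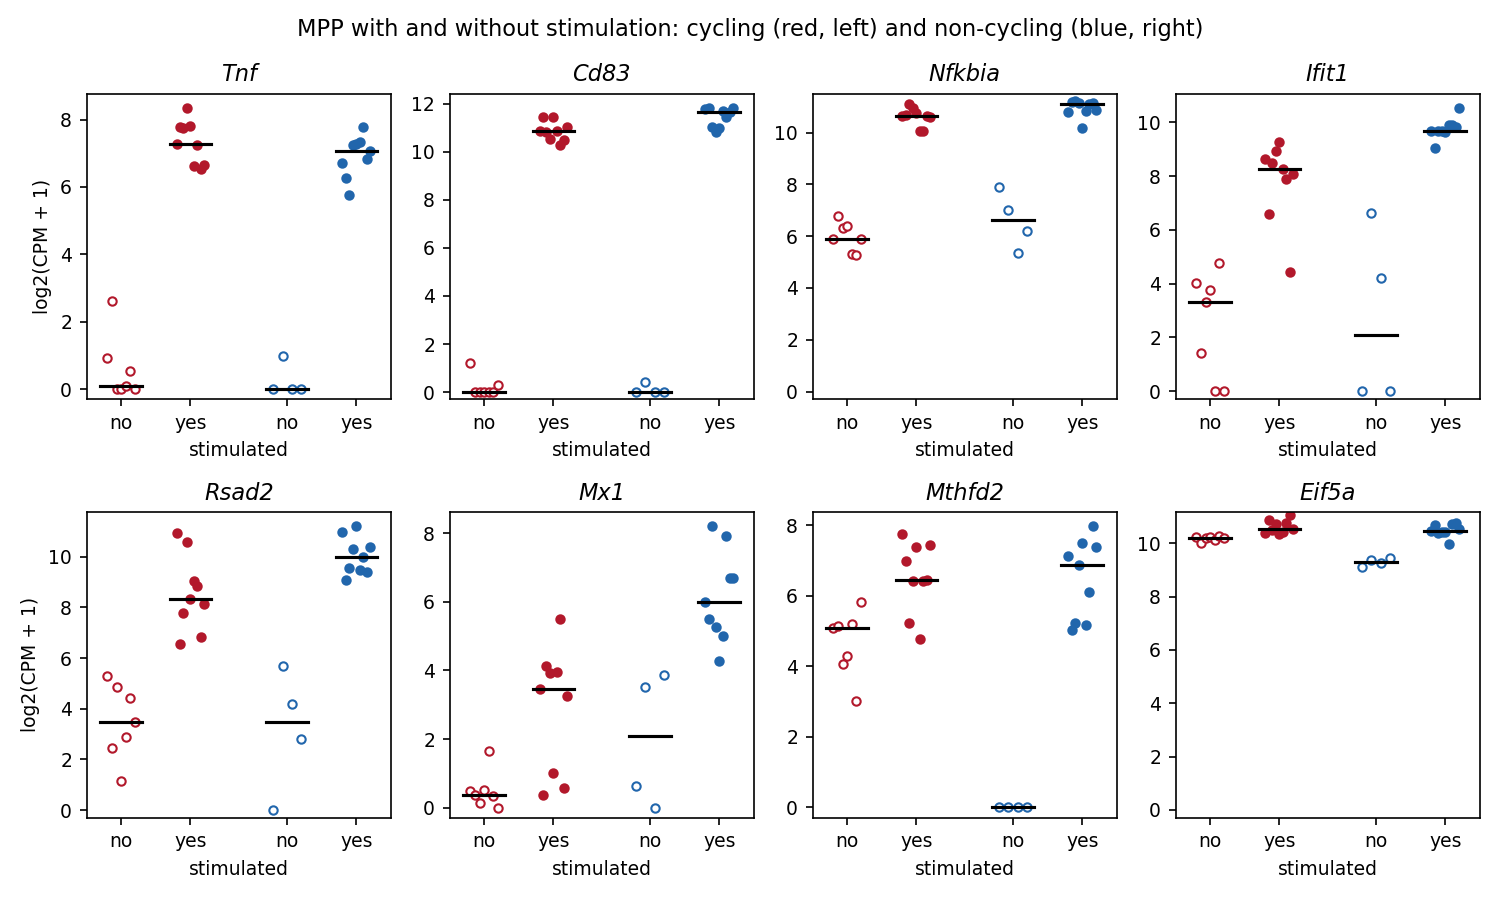
Level of 8 genes as log2(CPM + 1) in unstimulated (open) and stimulated (filled) sums of cycling (red) and non-cycling (blue) MPP, 1 point per mouse with the median as a bar. Tnf, Cd83 and Nfkbia rose in both classes, and Mthfd2 was at 0 in all 4 unstimulated non-cycling sums.

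When the response itself was compared between the classes, no inflammatory gene passed. The interaction of stimulation and class was called for 1 gene higher in cycling cells (0.00827%) and 4 lower (0.0331%), with 828 of 12094 genes at an unadjusted p under 0.05. Of the interferon, NF-κB, cytokine and STAT3 lists 0 genes were called in either direction, and their medians were -0.19, -0.18, -0.93 and -0.16 beside -0.18 over all genes. At an unadjusted p under 0.05 stood 4 of 42, 8 of 43, 3 of 25 and 1 of 19 of their genes. DESeq2 called 0.926% of genes higher and 2.03% lower over the whole table. The difference of responses was -1.04 ± 1.42 for Ifit1, -0.44 ± 1.39 for Tnf and 0.51 ± 0.32 for Nfkbia (adjusted p = 0.997, 1 and 0.851, edgeR). Leaving out old mouse 2-2 gave 2 lower calls, young mouse 1 gave 14 and young mouse 2-3 gave 9. Leaving out old mouse 2 or young mouse 2-1 gave 0 higher calls, and young mouse 3 gave 2. The standard errors above leave room for differences of several fold in Ifit1 and Tnf. In unstimulated cells the interferon list already lay lower in cycling cells by its median, -0.93 with 34 of 42 genes below 0 against 0.24 over all genes, but 1 of 42 was called (the transcription factor Irf9, -1.71, named after its value was seen), beside 0.149% of all genes called lower and 1.67% called higher. Interferon genes detected per unstimulated cell did not share that direction, at 12.7 ± 2.26 in cycling and 11.8 ± 1.66 in non-cycling cells, higher in 5 and lower in 2 of 7 mice. By genes detected per cell, 7 mice gained 8.10 ± 2.93 interferon genes with stimulation in cycling and 11.4 ± 5.50 in non-cycling cells, lower in 6 and higher in 1 mouse (exact permutation p = 0.0469, adjusted over 3 lists 0.141). That comparison was added after the data were seen and rests on 45 unstimulated non-cycling cells from 7 mice.

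The 5 genes whose response differed were Eif5a, Azin1, Mthfd2, B4galt4 and Niacr1, none of them on the inflammatory lists. Eif5a, a translation factor, was at 1019 to 1235 CPM in unstimulated cycling and 554 to 692.9 CPM in unstimulated non-cycling cells. After stimulation it was at 1289 to 2158 CPM and 1011 to 1754 CPM, so that the ranges of the classes were apart before and overlapped after. The difference of its responses was -0.80 ± 0.15 (adjusted p = 0.0497, edgeR). Azin1, which protects ornithine decarboxylase in polyamine synthesis, went from medians of 114 and 19.1 CPM to 360.1 and 415 CPM, a difference of -2.79 ± 0.43 (adjusted p = 0.00481, edgeR). Mthfd2, the mitochondrial folate enzyme, was at 7.12 to 55.7 CPM in unstimulated cycling sums and at 0 in all 4 unstimulated non-cycling sums, and at 26.3 to 212.6 CPM and 31.8 to 250.3 CPM after stimulation. In non-cycling cells it was at least 607-fold higher than 3 counts over those sums would give. B4galt4, a galactosyltransferase, had 1 count over the unstimulated non-cycling sums and medians of 29.5 and 23.2 CPM after stimulation. For these 4 genes the classes were apart before stimulation and overlapped after it. The genes were chosen by the interaction, which favours such a pattern. How many of all genes had the same gap was not counted, so it only describes them. Niacr1, the niacin receptor, differed in the opposite direction with ranges that overlapped before stimulation as well, at 0 in 7 unstimulated cycling sums and at 0 to 21.1 CPM in non-cycling ones, then at 39.1 to 155.3 CPM and 67.7 to 277 CPM. Fitted folds of Mthfd2, B4galt4 and Niacr1 depend on the prior count. With 1 mouse left out at a time, the Eif5a call was lost in 7 of 9 fits, Niacr1 in 3 (old mouse 2, old mouse 2-2, young mouse 2-1), and Azin1 and B4galt4 in 2 each (old mouse 2-2, young mouse 2-1). The Mthfd2 call was lost in 0 of 9.

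The label itself moved with age and treatment. Among stimulated MPP, 57.2 ± 2.60% of kept cells were labelled cycling in old mice (55.2% to 60.9%, n = 4) and 31.2 ± 4.73% in young mice (23.1% to 35%, n = 5), with no overlap (difference 26.0 points, exact two-sided permutation p = 0.00794). The difference was 22.3 points in plate set A and 31.2 in plate set B. In the 7 mice with both treatments the share was 45.4 ± 15.2% with stimulation and 78.8 ± 12.5% without, lower in 7 of 7 (exact permutation p = 0.0156, the smallest possible). It fell by 33.9 points in plate set A and fell by 32.98 in plate set B. A change in cells and a change in the label's own genes cannot be told apart, since the label may have been set on this RNA. For some mice, plate and stimulation cannot be told apart either.

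**Figure D5:**
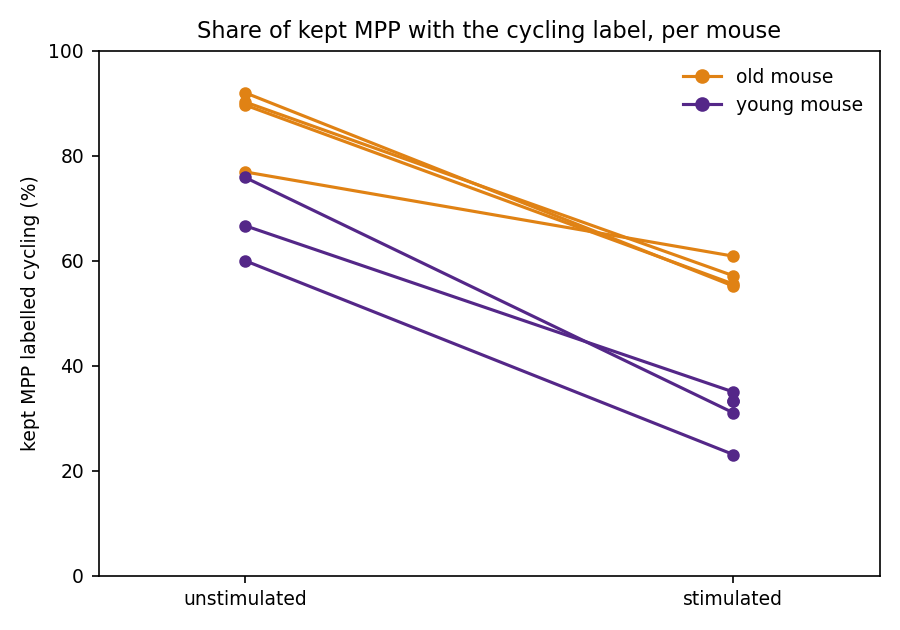
Percent of kept MPP labelled cycling in each mouse without and with stimulation (orange old, 4 mice; purple young, 5 mice, of which 2 have stimulated cells only). Every line falls, and all 4 old mice lie above all 5 young mice after stimulation.

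The class difference was also compared between ages. No gene passed the test of class by age, with 277 of 9276 genes at an unadjusted p under 0.05, while DESeq2 called 50 higher and 9 lower. Tnf was higher in the cycling cells of 4 of 4 old mice (medians 205 and 86.3 CPM) and of 1 of 5 young mice (medians 92.2 and 147 CPM). Its difference between ages was 1.58 ± 0.41 on the log2 scale (unadjusted edgeR p = 0.00241, adjusted p = 1), which did not survive correction over all genes. Bcl2a1d was lower in cycling cells of 4 of 4 old and 5 of 5 young mice. The interferon list's median difference between ages was 0.85 beside 0.28 over all genes, with 0 of 41 genes called (3 at an unadjusted p under 0.05). The cytokine and chemokine list, which holds Tnf, had a median of 1.19, with 19 of 21 genes above 0, 0 called and 6 at an unadjusted p under 0.05.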

How the data were processed

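The authors deposited expected counts per gene and well, read numbers estimated with RSEM on mm9 per the submitters' processing notes. The aligner, the annotation and the versions were not given in the sources used here. A second table deposited by the authors holds TPM, which relate each transcript to the total of its well. Both tables hold 23366 gene symbols, each column was matched to a well by its title, and 0 columns lacked a sample. Titles and mouse labels differ for plate 4; the mouse and plate labels were used. Well labels fewGenes, pctTrans and plasma led to exclusion.

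Counts were summed per mouse, treatment and class and rounded, and unstimulated sums needed 5 cells. Genes were tested with edgeR 4.0.16 in R 4.3.3 (filterByExpr, TMM, quasi-likelihood) with the mouse as a block. Standard errors are the log2 fold change divided by the square root of F. Both classes come from the same mouse. Sums of 1 mouse correlated at a mean Pearson's r of 0.149 over 3885 genes after class means were removed, against -0.018 for other pairs. Detection used cells thinned to 100000 counts with the ribosomal precursor Rn45s left out, a gene being detected at 1 count or more, and exact sign-flip permutation tests over mice. On simulated data the class test recovered 0.5% of genes changed by 1 on the log2 scale, 34.5% at 2 and 78.7% at 4, and the interaction 0%, 13% and 49%. The stimulated sums rest on 6 to 26 cells each, so their depth differs. Without molecular identifiers a read is not a separate molecule, so floors cover counting error only.

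The members, gene lists and rule for named genes were chosen with earlier results of these data known. Named genes are, outside the cell cycle lists and at a mean log2 CPM of 4 or more, the 8 largest called in each direction, up to 4 of smallest p per list, and a fixed set of cytokines, receptors, regulators and cycle genes. Promoters come from RefSeq GRCm38.p6, 1 window per symbol. Alternatives were DESeq2 1.42.0, limma 3.58.1 on log2(mean TPM + 1) or + 0.1, no low-count filter, other scalings, each plate set alone, no mouse block and each mouse left out.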

Additional observations from a re-analysis of the deposited data

Results flagged for a closer look

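In 4 of 49 groups of 4 to 9 mice, 1 mouse lay far from the others by Dixon's criterion, which chance meets in about 1 group of 20. Ifit1 in non-cycling stimulated MPP of young mouse 3 was at 1410.4 CPM (group median 808). Mx1 in cycling stimulated MPP of young mouse 2-1 was at 42.2 CPM (median 9.32). Cxcl10 in non-cycling stimulated MPP of young mouse 2-1 was at 1176 CPM (median 375). In old mouse 2-2, 76.9% of unstimulated MPP were labelled cycling (median 90.0% over 4 old mice).

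The stimulation response differed between cycling and non-cycling MPP for 5 genes by the interaction term of edgeR's quasi-likelihood test. The log2 differences, cycling minus non-cycling, were -10.84 for Mthfd2 (adjusted p = 2.37e-05), -2.79 for Azin1 (0.00481), -9.45 for B4galt4 (0.00481), 7.58 for Niacr1 (0.0167) and -0.80 for Eif5a (0.0497). The values of Mthfd2, B4galt4 and Niacr1 rest on groups with 0 or 1 count and depend on the prior count. With 1 mouse left out at a time, the call was lost in 7 of 9 fits for Eif5a, in 3 for Niacr1, in 2 each for Azin1 and B4galt4 and in 0 for Mthfd2.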

How the results depend on the processing

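No result changed direction past its threshold under any alternative run. For each value below that moved, the cause was not tested, beyond fewer mice in the plate sets. Counts of called genes are given as a percent of the 9276 genes (classes) or 12094 genes (responses and interaction) that the reported tests held. Shares called higher in cycling cells include cell cycle genes, which describe the label. Genes higher in cycling stimulated MPP were 1.96%, against 6.76% with DESeq2 (all 182 reported genes among them), 3.97% and 3.24% with limma on log2(mean TPM + 1) and + 0.1, 0.485% in plate set A, 0.0862% in plate set B, and 1.44% to 1.97% with 1 mouse left out. Genes lower were 1.18%, against 3.98% with DESeq2, 0.0755% and 0.0108% in plate sets A and B, 0.561% without the 3 mice with under 8 cycling cells (chosen after the data were seen) and 0.593% to 1.22% with 1 mouse left out. Without the mouse block (no pairing, plate set and age as covariates) these shares were 1.85% and 0.992%, and the interaction called 0.0744% higher and 0.0827% lower against 0.00827% and 0.0331%. The interaction called 0.926% and 2.03% with DESeq2, 0% higher at 2 or more cells a sum, and 0% to 0.0165% higher and 0.0165% to 0.116% lower with 1 mouse left out. The block otherwise changed no count of genes by over 1.5 times, save the interferon list's 12, which became 7, and the cytokine list's 2, which became 1. In cycling cells 4.56% rose and 2% fell, against 2.88% and 1.3% at 2 or more cells a sum, 8.73% falling with DESeq2, and 3.27% to 4.61% and 1.27% to 2.12% with 1 mouse left out. In non-cycling cells 5.47% rose and 2.75% fell, against 9.4% and 10.3% with DESeq2, and 3.53% to 5.52% and 1.41% to 2.84% with 1 mouse left out. DESeq2 called 0.539% and 0.097% for class by age, against 0% and 0%. In plate sets A and B the difference in genes detected was 1034 and 1122, in interferon genes detected -2.80 and -2.60, in the share labelled cycling 22.3 and 31.2 points between ages and -33.9 and -32.98 points with stimulation. These plate sets are too small to pass the threshold. With 1 mouse left out these 4 ran from 1042 to 1102, -3.01 to -2.39, 24.01 to 27.0 and -36.2 to -31.4, and the NF-κB and cytokine detection differences from 0.870 to 1.90 and 0.205 to 0.720. Interferon genes called lower were 20 with DESeq2, 7 without the 3 mice, and 5 to 11 with 1 mouse left out. The median of all genes moved from -0.18 to -0.01 for the interaction and from -0.00 to -0.27 for the non-cycling response under DESeq2. Of 20 alternatives, the call was lost for Bcl2a1d in 1, Mx1 and Oasl2 in 2, Ifit1 in 7, Rsad2 and Ccl5 in 10, Cd83 in 12 and Traf1 in 15. Il1b, not called, passed in 3, with adjusted p from 0.00675 to 0.862. Il1b and Ifit3 had mice at 0, and whether depth limits such low genes was not tested.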

Other observations

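MYC target and ribosome biogenesis genes, which serve growth in any dividing cell, rose with stimulation in 11 of 32 members in non-cycling MPP and 3 of 32 in cycling MPP (median log2 0.66 and 0.30). Over all genes 5.47% and 4.56% rose. The unequal number of mice and cells bears on these counts, so they do not compare the responses. The interaction was called for 1 of the 32, Eif5a, a call lost in 7 of 9 fits with 1 mouse left out. In it 29 of 32 lay below 0 (median -0.43), beside 6896 of all 12094 genes (median -0.18). Before stimulation 5 of 32 were already higher in cycling cells, beside 1.67% of all genes (median 0.72 beside 0.24 over all genes). The translation helicase Eif4a1 rose by 0.94 ± 0.17 in non-cycling cells (adjusted p = 0.00084, edgeR) and by 0.45 ± 0.13 in cycling cells (adjusted p = 0.0408, edgeR). Mybbp1a, a nucleolar protein, rose by 1.38 ± 0.30 (adjusted p = 0.00465, edgeR) in non-cycling cells and stood at 0.47 ± 0.23 (0.262) in cycling cells.

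Of 27 HSC identity genes 7 fell and 1 rose in cycling cells, and 5 fell and 1 rose in non-cycling cells (median -1.40 and -1.50). Over all genes 2% and 2.75% fell and 4.56% and 5.47% rose. The 4 that fell in both classes were Flt3, Hlf, Meis1 and Mycn. Flt3 is on the list but marks lymphoid-primed progenitors, so its fall is not read as a change in stem cell identity. Flt3 fell by 1.15 ± 0.25 in cycling cells (adjusted p = 0.00533, edgeR) and fell by 1.53 ± 0.30 in non-cycling cells (adjusted p = 0.00196, edgeR). Meis1, a stem cell transcription factor, fell by 1.40 ± 0.26 (adjusted p = 0.00084, edgeR) in cycling cells and fell by 1.19 ± 0.30 in non-cycling cells (adjusted p = 0.0153, edgeR). The gene that rose was the integrin Itgb3, by 5.58 ± 0.62 and 6.54 ± 0.85. None of the 27 had a called difference between the responses in edgeR's test, and 0 were at an unadjusted p under 0.05.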
